A study of Mus musculus with 2 samples.

Results

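Bone morphogenetic proteins (BMPs) signal through receptors, Smad proteins and the Id genes, and 10 genes of this route were followed here in intestinal stem cells without the circular RNA circPan3. They were the receptor genes Bmpr1a and Bmpr2, the Smad genes Smad1, Smad4, Smad5, Smad6 and Smad7, and the target genes Id1, Id2 and Id3. The members are the 10 rows of the array table whose platform annotation gives 1 of these symbols and no other, out of 18177 named protein-coding genes. Each of the 10 had a single row. All 10 passed the filter on low signal, which asked for a mean signal no lower than the median row of the table (2.53), as did 13710 named genes.

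A BMP ligand brings together a type II receptor kinase, such as Bmpr2, and a type I receptor kinase, such as Bmpr1a. The type I kinase phosphorylates Smad1 and Smad5, which join Smad4, enter the nucleus and switch on target genes, among them the Id genes and the inhibitory Smads. Id proteins are helix-loop-helix proteins without a DNA-binding basic region, and they hold E proteins and their partners off DNA. In the small intestine BMP signalling is low at the crypt base, where antagonists from the surrounding mesenchyme keep it down, and it rises towards the villus, where it limits stem cell behaviour.

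The study compared cells of circPan3-/-;Lgr5GFP-CreERT2 mice with cells of circPan3+/+;Lgr5GFP-CreERT2 mice. Mice of both genotypes were 8 weeks old and carried the Lgr5GFP-CreERT2 allele, in which green fluorescent protein reports expression of Lgr5, and the GFP-positive fraction was sorted from small intestine. Total RNA was hybridised to 1 Affymetrix Clariom D mouse array per genotype; whether an array held RNA of 1 mouse or several, how the circle was removed and whether the mice were treated are points not given in these sources. Because each genotype has a single array, differences carry no error and no test, and they describe these 2 arrays.

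Values are log2 RMA signals, and differences are circPan3-/- minus circPan3+/+ on that scale. The named genes past the filter had a median difference of 0.36, so a member is best read against that value and not against 0. This shift grew with signal, with medians of 0.19 in the dimmest eighth of these genes and 0.56 in the brightest. Repeated values made up 4.20% of rows in the circPan3-/- column and 69.1% in the circPan3+/+ column (exact equality), so whether both arrays were processed alike is not known. The 95th percentile of the 5222 negative control rows was 5.56 for circPan3-/- and 5.06 for circPan3+/+. It is used as a limit: where the dimmer value of a gene lies under the limit of its array the fold is given as "at least", counted from that limit, and where both do no fold is given. Bounds are on the deposited scale, and the shift of 0.36 is not subtracted from them. Pan3, the host gene of the circle, had 5.64 in circPan3-/- and 4.84 in circPan3+/+ cells; this is a value of the whole transcript cluster and does not check the deletion.

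As deposited, 4 of the 10 members were at least 2-fold higher in circPan3-/- cells, namely Id1, Bmpr1a, Id3 and Smad1, and 0 were at least 2-fold lower. Among all named genes past the filter the shares were 9.74% higher and 2.83% lower by that amount. All 10 differences were above 0 as deposited, as were those of 78.4% of named genes, but Smad5 alone of the 10 lay below the median difference of named genes. At 1.5-fold, 9 members were higher (30.5% of named genes) and 0 lower (5.63%). After the shift of 0.36 was subtracted, Id1, Bmpr1a and Id3 were still past 2-fold, 3 of 10 members against 3.89% of named genes. Loess on level left Id1 and Bmpr1a past 2-fold (3.36% of named genes), and quantile normalization Id1, Bmpr1a and Id3 (4.33%). None of the 10 was at least 2-fold lower under centring, loess or quantile normalization, where 5.05%, 5.11% and 4.57% of named genes were. With bounds in place of values under the limits the count was also 3, formed by Id1, Bmpr1a and Smad1, against 3.57% of named genes. Then 0 members were lower, against 0.562%. The shift was not subtracted in this count. Both values lay above the limits in 4 members, Bmpr2, Smad4, Id1 and Id2, against 18.7% of named genes; of these 4, Id1 alone was at least 2-fold higher, against 13.9% of the named genes so measured. The median difference of the 10 members was 0.92 as deposited.

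**Figure D1:**
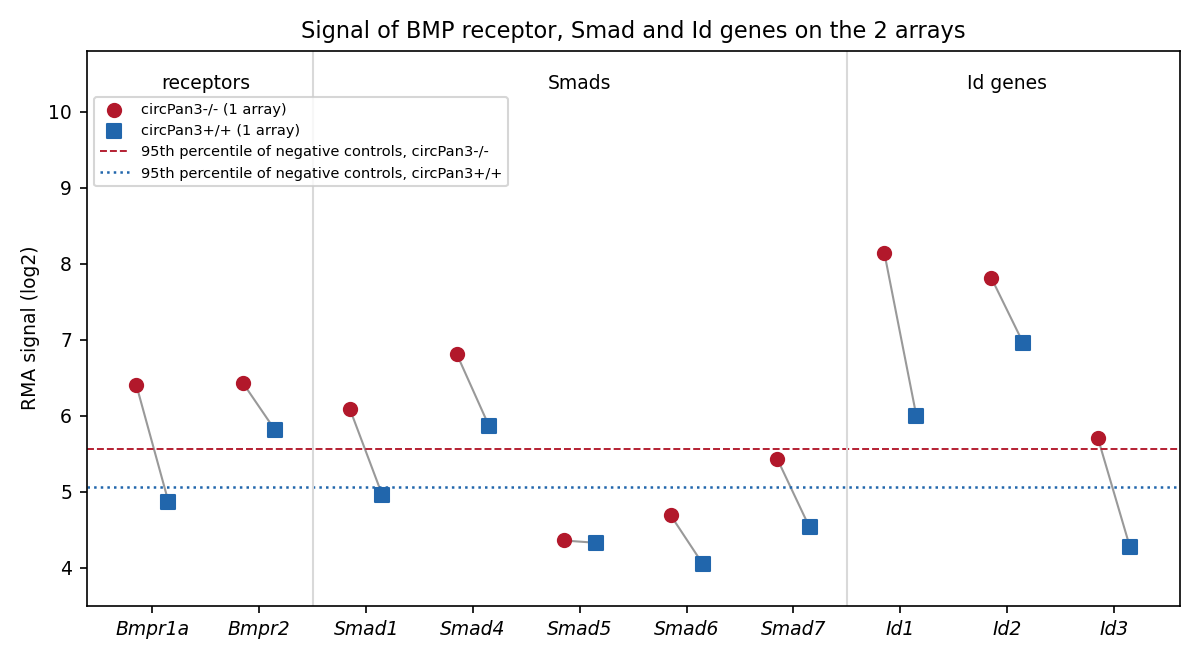
Log2 RMA signal of each member (horizontal axis, grouped by role) in circPan3-/- (red circles) and circPan3+/+ (blue squares) cells, 1 array each; the lines mark the 95th percentile of the negative controls of each array (5.56 in circPan3-/-, 5.06 in circPan3+/+). Id1 has the widest gap (8.14 and 6.00), the values of Smad5 nearly coincide (4.36 and 4.33), and both values of Smad5, Smad6 and Smad7 lie under the limits.

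The receptor genes were unequal. Bmpr1a, which encodes the type I receptor kinase that transmits BMP signals in the intestinal epithelium, had 6.40 in circPan3-/- cells, against 4.87 in circPan3+/+ cells. The difference of 1.53 is 2.89-fold between the deposited values. Because the circPan3+/+ value lay under the control limit, it is given as at least 2.53-fold on the deposited scale. The difference was 1.18 after centring and 1.03 after loess. Bmpr1a was number 339 from the top among the 13710 differences, and 2.47% of named genes lay higher. Bmpr2, which encodes the type II partner, had 6.42 in circPan3-/- cells and 5.81 in circPan3+/+ cells, both above the limits. Its difference of 0.62, or 1.53-fold, was close to the 0.56 that genes of its signal level shared, and 28.1% of named genes lay higher. Bmpr1a thus stood well above the general shift and Bmpr2 did not.

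The Smads that carry the signal differed among themselves. Smad1, a substrate of the BMP type I receptors, had 6.08 in circPan3-/- cells and 4.96 in circPan3+/+ cells. The difference was 1.12, a bound of at least 2.03-fold on the deposited scale. It fell short of 2-fold once the shift of named genes was subtracted (0.76). Smad5, the closely related second substrate, had 4.36 in circPan3-/- cells and 4.33 in circPan3+/+ cells. Both its values lay under the limits, the difference of 0.03 became -0.33 after centring, and 76.5% of named genes had a higher difference. The circPan3+/+ value of Smad5 stood in 133 rows of the table. Smad4, the shared partner of BMP and TGF-beta Smads, had 6.81 in circPan3-/- cells and 5.87 in circPan3+/+ cells, both above the limits, which is a difference of 0.94 or 1.92-fold. Its circPan3+/+ value was shared by 18 rows. After loess on level the difference of Smad4 was 0.39, with 18.2% of named genes higher.

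The inhibitory Smads, which BMP and TGF-beta signals induce and which act back on the receptors, had values under the limits on both arrays, so no fold is given. Smad7 had 5.43 in circPan3-/- cells and 4.53 in circPan3+/+ cells, with a difference of 0.89. Smad6, the form that acts mainly on the BMP branch, had 4.69 in circPan3-/- cells and 4.05 in circPan3+/+ cells, with a difference of 0.64. Both differences were larger than the median of all named genes, with 13.2% of genes above Smad7 and 26.7% above Smad6. Of the negative control rows, 94.3% were dimmer than Smad7 in circPan3-/- cells, against 92.5% in circPan3+/+ cells. For Smad6 the shares were 89.3% in circPan3-/- cells, against 89.0% in circPan3+/+ cells, so its place among the controls was nearly equal on both arrays.

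Among the target genes Id1 stood furthest apart. Id1 reached 8.14 in circPan3-/- cells, against 6.00 in circPan3+/+ cells, both above the limits. The difference was 2.14, which is 4.42-fold. It was number 102 of 13710 differences, with 0.737% of named genes higher, and number 129 after loess on level (1.58). Neither of its values stood in another row. Genes of the brightest eighth, to which Id1 belongs, were at least 2-fold higher in 18.5% of cases.

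Id3 had 5.70 in circPan3-/- cells and 4.27 in circPan3+/+ cells. Its difference of 1.43 corresponds to 2.70-fold between the deposited values but only to a bound of at least 1.56-fold, because the circPan3+/+ value was under the limit; that value was shared by 63 rows. Id2, which encodes an Id protein made in many cell types including lymphoid cells, had 7.82 in circPan3-/- cells and 6.96 in circPan3+/+ cells. They differed by 0.86, or 1.82-fold, and lay above the limits. After loess on level the difference of Id2 was 0.29, with 24.2% of named genes higher. Id1 had the largest deposited difference of the 3, and the place of Id3 is not settled, since its bound (0.64 on the log2 scale) lies under the measured difference of Id2. Id4, the remaining family member and not one of the 10, had 4.18 in circPan3-/- cells and 3.85 in circPan3+/+ cells, both under the limits, with a difference of 0.33, close to the median of named genes.

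**Figure D2:**
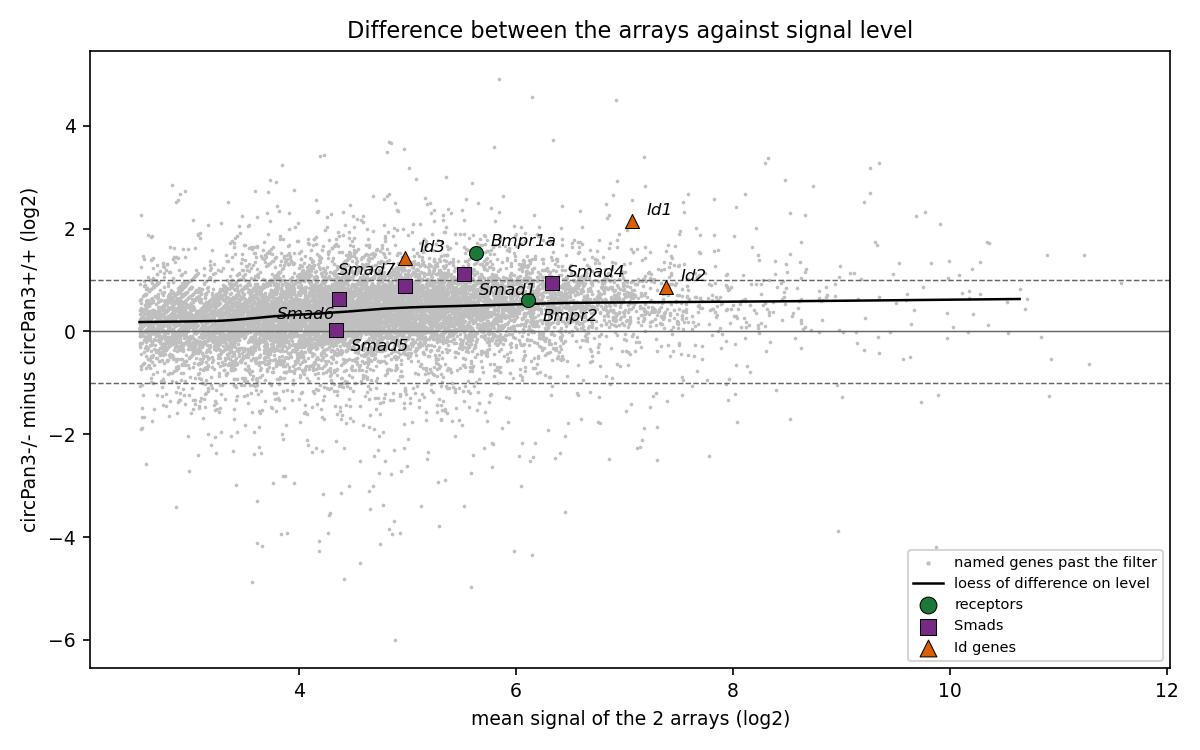
Difference between the arrays (circPan3-/- minus circPan3+/+, log2) against mean signal for the 13710 named genes past the filter (grey), with members in colour by role and the loess curve in black; dashed lines mark 2-fold. Id1 at 2.14 and Bmpr1a at 1.53 stand clear of the curve, Bmpr2 at 0.62 lies close to it and Smad5 at 0.03 below it.

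To set target genes against the machinery, the median of the 3 Id genes was compared with the median of the 7 receptor and Smad genes. The medians were 1.43 for the Id genes and 0.89 for receptors and Smads, 0.54 apart. This gap does not depend on a constant shift between the arrays, and it was 0.58 after loess and 0.57 after quantile normalization. With Smad6 and Smad7 left out, because they are themselves BMP targets, the gap was 0.49. The ranges overlapped, however, from 0.86 to 2.14 in the Id genes and from 0.03 to 1.53 in receptors and Smads: 4 of the 7 receptor and Smad genes had a larger difference than Id2, and 2 of the 3 Id genes a smaller one than Bmpr1a. The median of the Id genes was the difference of Id3, whose circPan3+/+ value was under the limit. When values under a limit were replaced by that limit, and genes under both limits left out, the gap was -0.12. The replaced values make the differences of Id3, Bmpr1a and Smad1 lower bounds, so the sign of this gap is not determined. Among the 4 members above both limits, Id1 and Id2 against Bmpr2 and Smad4, the gap was 0.72. Both settings were added after the values were seen. Since the ranges overlapped, the Id genes as a group were not separate from the genes upstream of them. Of the 3, Id1 alone had a larger deposited difference than each receptor and Smad gene.

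**Figure D3:**
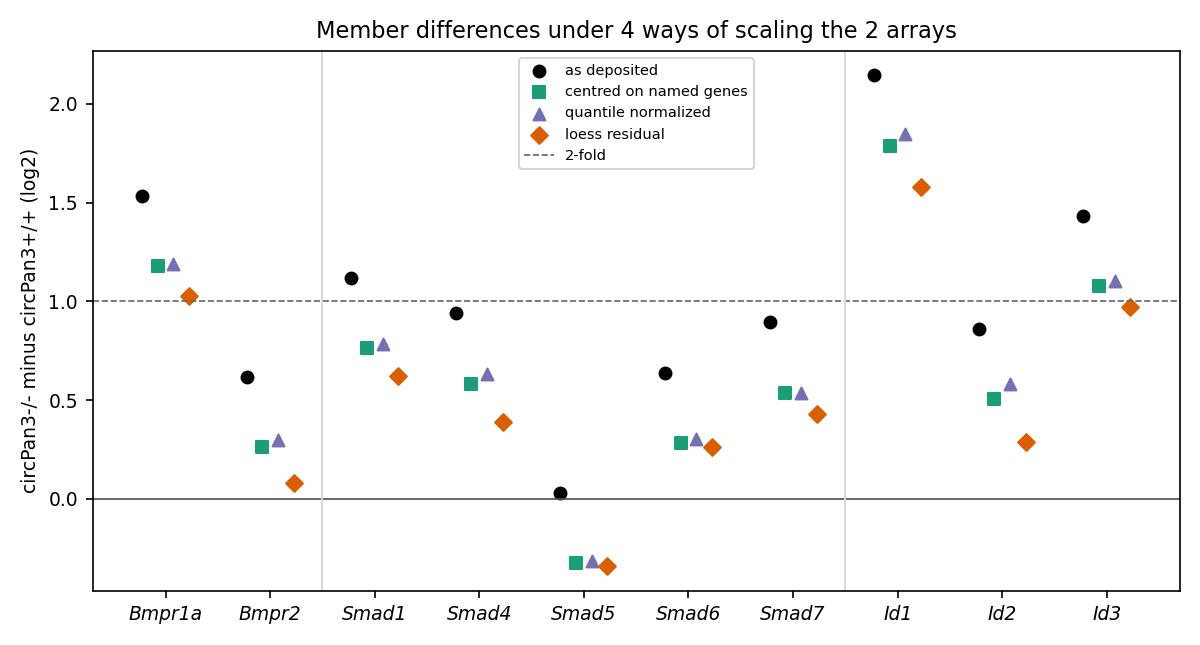
Difference of each member (circPan3-/- minus circPan3+/+, log2) as deposited, centred on the median of named genes, after quantile normalization and as the residual from loess on level; the dashed line is 2-fold. Id1 and Bmpr1a are past 2-fold under all 4, Id3 falls to 0.97 under loess, and Smad5 lies at 0.03 as deposited and below 0 under the other scalings.

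Smad complexes bind short DNA elements, so the promoters of members were read from RefSeq (GRCm38.p6; 250 bases before to 50 after the annotated start), with 9 windows of 7 members. Windows of Id1, Smad4 and Smad7 were not used here. The 9 windows were searched on both strands for the short Smad site GTCT and for the GC-rich element GGCGCC. They were also searched for a facing pair of the short sites, GTCTAGAC, which contains GTCT and its reverse complement. These motifs were chosen after the windows were seen. GTCT occurs in 88.0% of the 32851 promoter windows of the table, GGCGCC in 11.9%, and the facing pair in 0.213% (70 windows). Windows are shown for Id3 and Id2, the targets, for Smad6, the only inhibitory Smad whose window was used, and for Bmpr1a, the receptor gene with the larger difference. They are written 5′ to 3′ on the strand of the gene, with GTCTAGAC and GGCGCC in capitals. Id3 lies at chr4:136143572-136143871 on the plus strand, Id2 at chr12:25096043-25096342 on the minus strand, Smad6 at chr9:64022010-64022309 on the minus strand and Bmpr1a at chr14:34502497-34502796 on the minus strand.
Id3: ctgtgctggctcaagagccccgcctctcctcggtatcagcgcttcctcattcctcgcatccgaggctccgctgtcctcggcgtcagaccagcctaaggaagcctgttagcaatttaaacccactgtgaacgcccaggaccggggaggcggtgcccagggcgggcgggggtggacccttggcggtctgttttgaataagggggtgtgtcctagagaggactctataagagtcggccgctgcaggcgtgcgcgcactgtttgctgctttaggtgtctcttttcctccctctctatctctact
Id2: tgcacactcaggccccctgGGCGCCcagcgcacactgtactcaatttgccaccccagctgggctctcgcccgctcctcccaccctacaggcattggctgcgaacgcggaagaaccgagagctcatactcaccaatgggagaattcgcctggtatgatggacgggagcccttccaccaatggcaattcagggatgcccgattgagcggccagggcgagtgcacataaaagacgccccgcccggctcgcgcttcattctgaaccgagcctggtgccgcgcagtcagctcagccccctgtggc
Smad6: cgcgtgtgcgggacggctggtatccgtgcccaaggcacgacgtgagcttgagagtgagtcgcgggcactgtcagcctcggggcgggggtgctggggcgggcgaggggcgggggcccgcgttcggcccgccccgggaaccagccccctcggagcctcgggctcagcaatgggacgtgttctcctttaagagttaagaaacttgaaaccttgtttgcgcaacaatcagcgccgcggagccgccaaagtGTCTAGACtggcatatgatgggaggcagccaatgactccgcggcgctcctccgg
Bmpr1a: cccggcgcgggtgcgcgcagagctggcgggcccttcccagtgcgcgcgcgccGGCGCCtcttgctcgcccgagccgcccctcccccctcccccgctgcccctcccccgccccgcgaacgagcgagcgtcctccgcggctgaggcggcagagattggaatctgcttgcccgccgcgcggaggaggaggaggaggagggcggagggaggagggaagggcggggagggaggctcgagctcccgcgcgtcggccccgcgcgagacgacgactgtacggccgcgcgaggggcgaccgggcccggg

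The Smad6 window held GTCTAGAC with its first base at position -4 from the annotated start, and none of the other windows used held it. The window of Smad7, the other inhibitory Smad, was not used, so the 2 cannot be compared. GGCGCC lay at -231 in Id2 and at -198 in Bmpr1a, and also in the windows of Bmpr2 and in 2 of the 3 windows of Smad5, but not in those of Id3, Smad6 or Smad1. GTCT or its reverse complement occurred 3 times in Id3 and once in Id2. Id3 and Smad1, both past 2-fold as deposited, had neither of the longer motifs, and Smad5, at 0.03, had GGCGCC. The array holds no binding data, and a match describes these letters only.

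The rest of the pathway was read from 7 lists of ligands, modulators, receptors, Smads, regulators, targets and E proteins. Together they held 80 genes past the filter that are not members, of which 12 were higher and 3 lower by at least 2-fold, against 9.74% and 2.83% of all named genes, and with a median of 0.32 against 0.36. Once the shift was subtracted, 4 were higher (Bmp3, Rgmb, Skil and Gata6) and 6 lower (Gdf11, Grem1, Fstl1, Acvrl1, Eng and Zeb1). The shares of all named genes were then 3.89% and 5.05%, so their balance turned round as well. After loess the counts in the lists were 6 and 6, against 3.36% and 5.11% of named genes. Most were dim: 56 of the 80 had both values under the limits, and once bounds were applied 3 stayed past 2-fold on the higher side and 0 on the lower side.

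BMP ligands had a median difference of -0.01 over 13 genes. Of these, 2 were at least 2-fold higher and 1 lower, against 9.74% and 2.83% of named genes. All 13 lay under the limits on both arrays. Bmp3, an atypical ligand that can oppose other BMPs, had 4.98 in circPan3-/- and 2.95 in circPan3+/+ cells, and Bmp7 had 4.99 in circPan3-/- and 3.71 in circPan3+/+ cells. Gdf11 had 2.24 in circPan3-/- and 3.56 in circPan3+/+ cells, while Bmp2 and Bmp4, the ligands best known from the intestinal mesenchyme and epithelium, differed by -0.19 and -0.01. Ligand signal was therefore within the range of the controls.

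Secreted antagonists and modulators had a median of 0.10 over 13 genes. Of these, 0 were at least 2-fold higher and 2 lower, against 9.74% and 2.83% of named genes. These 2 were Grem1, a BMP antagonist of crypt-associated mesenchyme, with 2.37 in circPan3-/- and 3.61 in circPan3+/+ cells, and Fstl1, a secreted follistatin-related protein, with 4.26 in circPan3-/- and 5.46 in circPan3+/+ cells. Both values of Grem1 lay under the limits, and for Fstl1 no bound could be set, so no fold is given. Of the 13 genes, 11 had both values under the limits, and with bounds 0 were at least 2-fold lower. Furthest above the median of named genes were Sost (0.92), Dand5 (0.83) and Twsg1 (0.53). Of the 13, Twsg1 alone was above the limits on both arrays. Grem1 and Fstl1 are known from stromal cells. Of 9 mesenchymal markers, 3 were at least 2-fold lower, against 2.83% of named genes, and 2 higher (Acta2 and Myh11), against 9.74%. With bounds 2 were lower and 1 higher. The median of the 9 was -0.36, and 5 had both values under the limits. The summed signal of the 9 markers (log2 of the sum) was 8.67 in circPan3-/- cells, against 9.73 in circPan3+/+ cells. Vim, the brightest of these markers, weighs most in that sum, with 7.16 in circPan3-/- and 8.91 in circPan3+/+ cells. The part of stromal cells in these values was not tested.

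Other receptors and co-receptors had a median of 0.50 over 16 genes. Rgmb, a BMP co-receptor, differed by 1.41, the activin receptor genes Acvr1c by 1.29 and Acvr2a by 1.01, all between values under the limits. At the other end stood Acvrl1 (-0.91) and Eng (-0.69), the endothelial receptor and co-receptor of BMP9, and the TGF-beta receptor gene Tgfbr2 (-0.46), with 5.85 in circPan3-/- and 6.31 in circPan3+/+ cells. The activin type II receptor gene Acvr2b (0.29) and the type I receptor gene Acvr1 (0.25) lay slightly under the median of named genes. Of 7 endothelial markers other than Eng, which is on that list too, 2 were at least 2-fold lower and 0 higher. Among named genes the shares were 2.83% and 9.74%. The median of the 7 was -0.21, or -0.45 with Eng. With bounds 1 of the 8 markers, Eng included, was at least 2-fold lower. Their summed signal without Eng was 7.78 in circPan3-/- cells, against 8.76 in circPan3+/+ cells. In bulk RNA, fewer cells of a type and less RNA per cell cannot be told apart.

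The Smads of the TGF-beta and activin branch were near the general shift, with Smad2 at 0.45 and Smad3 at 0.21, and Smad9, the third BMP-regulated Smad, at 0.26; all had both values under the limits. Intracellular regulators had a median of 0.49 over 20 genes. Of these, 4 were at least 2-fold higher and 0 lower, against 9.74% and 2.83% of named genes. After the shift was subtracted 1 was higher and 1 lower, and with bounds 1 was higher. Skil, which encodes the Smad co-repressor SnoN and is itself induced by TGF-beta, had 7.19 in circPan3-/- and 5.44 in circPan3+/+ cells. Of the 4 higher as deposited, Skil alone was above the limits on both arrays. It differed by 1.75, or 3.37-fold. Lemd3, an inner nuclear membrane protein that binds Smads, differed by 1.33 and the ubiquitin ligase gene Nedd4l by 1.06, while the repressor gene Zeb1 had -0.90.

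Other transcripts known to respond to BMP had a median of 0.33 over 15 genes, under the differences of Id1 (2.14), Id2 (0.86) and Id3 (1.43). Of the 15, however, 11 had both values under the limits, so this median mostly describes dim signal. The 2 genes above the limits on both arrays were Gata6 and Cdkn1a, and Cdkn1a differed by 0.69. The 3 that were at least 2-fold higher were Gata6, with 7.26 in circPan3-/- and 5.58 in circPan3+/+ cells (3.21-fold), Hes1, with 6.09 in circPan3-/- and 4.75 in circPan3+/+ cells (at least 2.04-fold), and Gata4, at 1.07 with its circPan3+/+ value under the limit. Among named genes 9.74% were so. With bounds 2 of the 15 were past 2-fold, and 1 after the shift was subtracted. Hes1 is also a Notch target, and Gata4 and Gata6 are also epithelial identity factors. The part of BMP or of any other input in these 3 differences was not tested. The lowest were Msx1, a classical BMP target, at -0.09, Hamp at -0.07 and Hey1 at 0.08, all under the limits.

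The E proteins that Id proteins bind had differences from -0.12 to 0.77. Tcf12 had 5.84 in circPan3-/- and 5.07 in circPan3+/+ cells and so differed by 0.77. Tcf3 had 5.45 in circPan3-/- and 5.13 in circPan3+/+ cells, and Tcf4 had 4.93 in circPan3-/- and 5.06 in circPan3+/+ cells, differences of 0.32 and -0.12. Of the 3, Tcf12 alone was above the limits on both arrays.

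**Figure D4:**
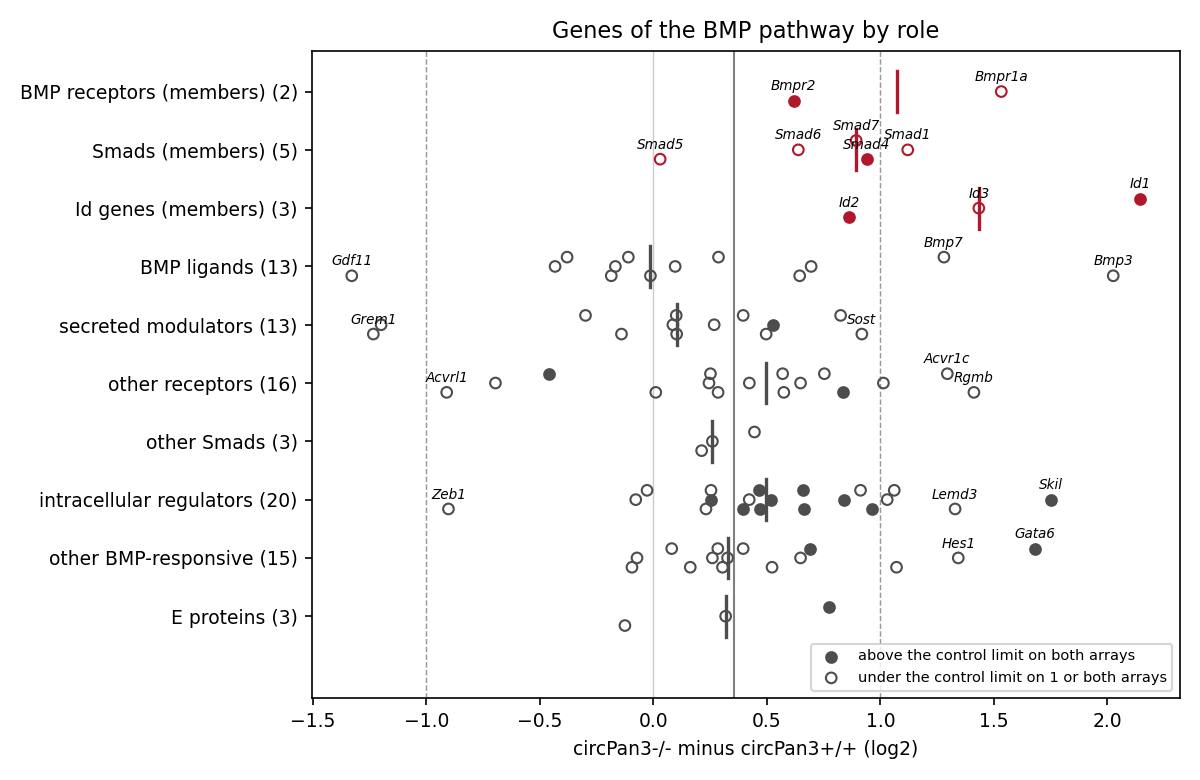
Differences (circPan3-/- minus circPan3+/+, log2) of the 10 members (red) and of the other pathway genes past the filter (grey), by role with the number of genes in brackets; short bars are medians, the solid vertical line is the median of all named genes (0.36), dashed lines are 2-fold, and filled points were above the control limit on both arrays. Members lie mostly right of the line, ligands and secreted modulators mostly left of it, and Skil (1.75) and Gata6 (1.68) are the filled points furthest right outside the members; Smad9, Nog and Bambi belong to 2 lists.

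Other differences between the arrays lie beside these results. Counts here stand beside 9.74% of all named genes at least 2-fold higher and 2.83% lower as deposited. With bounds the shares were 3.57% and 0.562%, and where bounds change a count both are given. Listed markers without a row of their own past the filter were not counted. That left 7 of 8 immediate early genes and 7 of 8 goblet markers. It left 4 of 6 Paneth, 5 of 6 enteroendocrine and 4 of 5 B and plasma markers. Immediate early genes, which respond fast to dissociation and other stimuli as Id1 also can, were at least 2-fold higher in 7 of 7 cases, with a median of 2.26. Their sum was 11.3 in circPan3-/- cells, against 9.11 in circPan3+/+ cells. Goblet cell markers passed 2-fold on the higher side in 7 of 7 cases, or 6 of 7 with bounds. Their median was 2.27 and their sum 12.2 in circPan3-/- cells, against 10.1 in circPan3+/+ cells. Paneth cell markers passed 2-fold on that side in 4 of 4 cases, with a median of 2.29 and a sum of 12.6 in circPan3-/- cells, against 10.6 in circPan3+/+ cells. Enteroendocrine markers did so in 5 of 5 cases, or 3 of 5 with bounds, with a sum of 8.49 in circPan3-/- cells, against 6.94 in circPan3+/+ cells. Enterocyte markers, in whose cells BMP signalling is high, were at least 2-fold lower in 4 of 10 cases and higher in 0, with a sum of 11.3 in circPan3-/- cells, against 11.9 in circPan3+/+ cells. Myeloid markers were at least 2-fold lower in 9 of 10 cases, or 3 of 10 with bounds, with a median of -2.16. Without Lyz2, which is bright on both arrays, their sum was 7.26 in circPan3-/- cells, against 9.49 in circPan3+/+ cells. T, NK and innate lymphoid markers, whose cells use Id2 and Id3, were at least 2-fold lower in 3 of 8 cases, or 1 of 8 with bounds. The median was -0.40 and the sum 8.16 in circPan3-/- cells, against 8.99 in circPan3+/+ cells. Gzma, the brightest of these 8, weighs most in that sum, with 7.10 in circPan3-/- and 8.15 in circPan3+/+ cells. B and plasma cell markers were at least 2-fold apart in 0 of 4 cases, with a median of -0.13; their sum was 8.85 in circPan3-/- cells, against 8.52 in circPan3+/+ cells, and without Jchain 6.34 in circPan3-/- cells, against 6.75 in circPan3+/+ cells. No marker was listed at 0. The part of any of these in the differences of the members was not tested.

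The label of intestinal stem cells was checked on 9 crypt base markers. Lgr5 had 7.02 in circPan3-/- and 10.91 in circPan3+/+ cells and Olfm4 10.28 in circPan3-/- and 11.53 in circPan3+/+ cells, above the limits on both arrays, while Sox9 differed by 1.37 and Axin2, a Wnt target, by 1.72 in the other direction. Of the 9 markers, 4 passed 2-fold on the higher side and 2 on the lower, or 2 and 2 with bounds. Among named genes the shares as deposited were 9.74% and 2.83%. Both values lay under the limits in 4 of the 9 markers. Lgr5, the gene that the sort reads out, thus differed by -3.89, and signal of the members comes from cells with unequal Lgr5.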

How the data were processed

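The authors made the values with Affymetrix Power Tools and RMA, per the submitters' processing notes; their versions and the genome build are not stated there. The deposited table holds 1 value per transcript cluster on a log2 scale; the table names no unit, and the base was inferred from its lowest and highest values (-0.18 and 13.07). RMA removes no GC-dependent background, so low values do not tell expression from background. The number of arrays limits the precision.

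Rows (72688) were named from the platform annotation, updated through RefSeq (GRCm38.p6). Rows with several symbols (2146) were not named, and named genes were protein-coding with a symbol other than a predicted model; the brightest row stood for a gene. Counts use a size rule of 2-fold among genes past the filter. The bounds, the setting with members above both limits and the one with values found in no other row were chosen after seeing the data. Members and lists were chosen with earlier results of these data known. The text names all members and, of each list, up to 3 genes furthest above and below the median of named genes. Bmp2, Bmp4, Id4, Cdkn1a and the activin receptor genes Acvr2b and Acvr1 were added after their values were seen. So were Pan3, Jchain and the markers named. Alternatives were centring, loess (span 0.3), quantile normalization, the mean of rows, stricter filters, 1.5-fold and means. Functions were tested on simulated data. Python 3.11.15, pandas 2.3.3 and statsmodels 0.14.6 were used.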

Additional observations from a re-analysis of the deposited data

How the results depend on the processing

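With 1 array per genotype no array can be left out, and no paired analysis was possible because each group holds 1 sample. The count of members at least 2-fold lower was 0 in each setting run. The count at least 2-fold higher, 4 as deposited, was 3 after either centring, after quantile normalization or with values found in no other row, but 2 after loess (Id1 and Bmpr1a), 9 at a threshold of 1.5-fold (30.5% of named genes) and 1 when only the 4 members measured above both limits were kept. The medians of receptors and Smads and of Id genes, 0.89 and 1.43 as deposited, were 0.54 and 1.08 after centring on named genes, 0.71 and 1.25 after centring on all rows, 0.39 and 0.97 after loess, and 0.53 and 1.10 after quantile normalization. For Smad5 these settings gave -0.33, -0.16, -0.34 and -0.31, against 0.03 as deposited; the sign of the other 9 members was the same in each. Among the 7 members with at least 1 value above its limit, the median of receptors and Smads was 1.03 and the gap of the Id genes to it 0.40. With means the gap was 0.66, or 0.63 without the inhibitory Smads. Among members above both limits the median of receptors and Smads was 0.78 and either gap 0.72. Among members with values found in no other row the gap without the inhibitory Smads was 0.38. With bounds the median of the Id genes was 0.86 and either gap -0.12, which follows from the bound of Id3 and from leaving out Smad5, Smad6 and Smad7. The bounds are lower limits of the differences, so the sign of that gap is not determined. Averaging the rows of a symbol and the upper-quartile filter changed nothing, since each member has 1 row and passes. Signal over background limits Smad5, Smad6 and Smad7 most.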

Other observations

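Basic helix-loop-helix factors of the intestinal epithelium were read from a list of 13 genes chosen after the values above were seen. Some proteins of this class pair with E proteins, which Id proteins oppose, and others on the list pair otherwise. Of the 12 past the filter, 4 were at least 2-fold higher in circPan3-/- cells (9.74% of named genes) and 0 lower (2.83%), with a median difference of 0.70. After the shift of named genes was subtracted Atoh1 alone was still past 2-fold, and 2 genes were past it after loess and 2 with bounds. Atoh1, the secretory lineage factor, had 5.63 in circPan3-/- and 3.44 in circPan3+/+ cells; they differ by 2.19, which gives a bound of at least 1.48-fold. Neurog3, which starts the enteroendocrine lineage, had 4.14 in circPan3-/- and 2.80 in circPan3+/+ cells, both under the limits. Bhlhe40, a stimulus-responsive repressor, was above both limits, with 7.40 in circPan3-/- and 6.06 in circPan3+/+ cells, or 2.53-fold, and the fourth was Hes1. Among proteins of the list that pair outside the E protein network, Myc differed by 0.57, Max by 0.14 and Mxd1 by -0.27, these 3 above the limits.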
